A study of Mus musculus with 29 samples.

Results

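The vasoconstrictor hormones and receptors of the aortic arch were represented by 10 genes, chosen by name from the angiotensin, endothelin, vasopressin, adrenergic and thromboxane systems and matched by symbol to the 56748 genes of the counts table. They are Agtr1a, Ace and Agt of the angiotensin system, Ednra, Ednrb, Edn1 and Ece1 of the endothelin system, the vasopressin receptor Avpr1a, the adrenergic receptor Adra1d and the thromboxane receptor Tbxa2r. The samples were aortic arches of Ercc1Δ/- mice, which carry 1 null and 1 hypomorphic allele of the DNA repair gene Ercc1 in every cell, and of WT littermates, all C57BL6J/FVB hybrids of both sexes. Mice were fed ad libitum (AL) until 6 weeks or 22 weeks of age, or were put on dietary restriction (DR) from 7 weeks of age, with 30% less food from 9 weeks, until 22 weeks of age. Each mouse gave 1 library. The 6 groups held 5 WT and 5 Ercc1Δ/- mice at 6 weeks AL, 4 and 4 mice at 22 weeks AL, and 5 and 5 mice at 22 weeks DR. No diet-restricted group of 6 weeks was among them, so age was compared in AL-fed mice only and diet at 22 weeks only.

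Arterial tone is set by smooth muscle cells of the vessel wall, which contract when a hormone binds a receptor that couples through Gq proteins to phospholipase C and calcium release. Angiotensinogen, the product of Agt, is cut by renin and by angiotensin-converting enzyme, the product of Ace, into angiotensin II, which acts on the AT1a receptor encoded by Agtr1a. Endothelin-1, the product of Edn1, is made mostly in endothelium, is activated by the endothelin-converting enzyme Ece1, and constricts through the ETA receptor (Ednra), while the ETB receptor (Ednrb) on endothelium releases nitric oxide. Adra1d encodes the alpha-1D adrenergic receptor for noradrenaline, Tbxa2r the receptor for thromboxane A2 and Avpr1a the V1a receptor for vasopressin.

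The 28 libraries used held 921167 to 9616382 counts on genes. At 22 weeks the Ercc1Δ/- libraries were shallower than the WT libraries without overlap, at 1294980 to 3855444 against 3903589 to 9616382 counts on AL and 921167 to 2572523 against 2660422 to 6124471 on DR. The calls at 22 weeks were therefore also made on counts thinned to the smallest library, and the same 4 genes on AL and the same 3 on DR were called. Ercc1 itself ran from 52.2 to 136.2 normalised counts in WT and from 28.2 to 78.7 in Ercc1Δ/- mice, and its log2 fold change was -1.41 at 6 weeks (adjusted p = 0.00032, edgeR) and -0.97 at 22 weeks AL (adjusted p = 0.00271, edgeR). Mouse 003 of the WT group at 22 weeks AL, a shallow library that the study left out, was kept out here and added back as an alternative. Of the WT mice at 6 weeks, mouse 001 had a summed level of 3611 normalised counts over the 8 nerve and Schwann cell markers, where the other 4 mice had 117.8 to 156.7.

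The aortic identity of the tissue was checked on marker genes. The 8 smooth muscle markers, Acta2 and Myh11 among them, summed to between 61680 and 158200 normalised counts in the 28 libraries, far above the 9 endothelial markers at 1916 to 6604 and the 8 macrophage markers at 607.1 to 4409. The smooth muscle sum was lower in Ercc1Δ/- mice, at 61680 to 95770 against 117300 to 140600 at 22 weeks AL. On DR it was 86430 to 93280 against 121600 to 158200. By the rule for calls given below, 6 of its 8 markers were called lower on AL and 7 of 8 on DR. The macrophage sum was higher, at 2043 to 3736 against 942.1 to 1390 at 22 weeks AL. On DR it was 1374 to 4409 against 607.1 to 1177. Of its 8 markers 6 were called higher on AL and 4 on DR. Of all tested genes 12.0% were called between genotypes at 22 weeks AL and 13.0% on DR, in either direction. The 6 pericyte markers summed to 4730 to 5323 against 6750 to 9254 at 22 weeks AL, and the 8 heart muscle markers to 952.4 to 2269 against 519.5 to 900.3 on DR, without overlap of the genotypes. Of the pericyte markers 5 were tested, and 2 (Cspg4 and Rgs5) were called lower on AL, with a median log2 fold change of 0.01. Of the heart muscle markers 7 were tested, and 1 (Tnnt2) was called higher on DR, with a median of 1.22. The part of other cell types in the results was not tested. In bulk tissue fewer cells of a type and less RNA per cell cannot be told apart, and this holds for each result that follows.

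RefSeq promoter sequences, read from build GRCm38.p6, were at hand for 8 of the 10 genes, with none for Agtr1a and Adra1d. Those of the 3 genes with an entry that were called between genotypes at 22 weeks AL are printed 5′ to 3′, as the 250 bases before the first start listed. These RefSeq starts differ from the gene ends of the annotation used for the positions below. By those positions the Ace and Ednrb windows lie inside the gene and the Tbxa2r window does so in part. Capitals mark TATAAA (the TATA box) or GGGCGG (the GC box) on either strand. The CArG box, the element bound by serum response factor in many smooth muscle genes, was searched as well.
Ace (chr11:105967698-105967947, plus strand; chr11:105858524-105858773 in GRCm39): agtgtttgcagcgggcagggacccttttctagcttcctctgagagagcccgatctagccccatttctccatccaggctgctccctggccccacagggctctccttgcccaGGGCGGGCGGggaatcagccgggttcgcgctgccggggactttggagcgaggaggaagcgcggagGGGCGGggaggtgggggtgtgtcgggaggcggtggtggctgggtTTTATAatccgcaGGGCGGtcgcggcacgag
Ednrb (chr14:103843702-103843951, minus strand; chr14:104081138-104081387 in GRCm39): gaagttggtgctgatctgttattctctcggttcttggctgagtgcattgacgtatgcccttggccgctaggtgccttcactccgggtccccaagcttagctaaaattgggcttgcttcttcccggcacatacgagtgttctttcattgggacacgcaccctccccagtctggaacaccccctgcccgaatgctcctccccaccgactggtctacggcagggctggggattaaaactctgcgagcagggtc
Tbxa2r (chr10:81328018-81328267, plus strand; chr10:81163852-81164101 in GRCm39): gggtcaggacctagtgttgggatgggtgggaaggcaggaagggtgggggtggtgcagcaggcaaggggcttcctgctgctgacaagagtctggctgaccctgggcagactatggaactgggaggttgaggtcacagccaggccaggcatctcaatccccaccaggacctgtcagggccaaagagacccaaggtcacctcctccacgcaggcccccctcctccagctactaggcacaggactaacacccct
The Ace window held 4 GC boxes, 2 of which overlap, and 1 TATA box that began 31 bases before the start. The Ednrb and Tbxa2r windows held neither. Of the other genes Agt had a TATA box 30 bases before its start and Avpr1a one at 137 bases. Ece1, with 4 starts listed, had GC boxes before starts 2 and 4. None of the windows of the 8 genes held a CArG box. Among all 32851 promoter windows of this length 32.7% held a GC box, 12.4% a TATA box and 1.47% a CArG box.

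The genes spanned a wide range of levels. Compared per length of exon, which allows genes to be set side by side, Ace was highest with 186 ± 31.9 CPM per kilobase of exon (CPM is the count scaled to a common library total; SD, n = 28), 7.09 times the mean of Ece1 at 26.3 ± 6.03 and above it in 28 of 28 libraries. Adra1d followed at 11.6 ± 3.83, and its range from 4.64 to 17.4 overlapped that of Ece1, although Ece1 was the higher in each of 28 libraries. Edn1 at 6.42 ± 2.22 and Tbxa2r at 5.69 ± 1.52 did not differ beyond their spread, Edn1 being the higher in 18 of 28 libraries. Ednrb at 2.52 ± 1.44 and Ednra at 2.08 ± 0.50 overlapped as well. Ednrb was the higher in 4 of 14 WT and 10 of 14 Ercc1Δ/- libraries, taken over all ages and diets. No difference of genotypes in their ratio within a library passed an exact permutation test. The unadjusted p was 0.667 at 6 weeks, 0.143 at 22 weeks AL and 0.111 on DR. Among the lowest 3, Avpr1a stood at 0.709 ± 0.444, Agtr1a at 0.513 ± 0.293 and Agt at 0.0508 ± 0.0775.

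**Figure D1:**
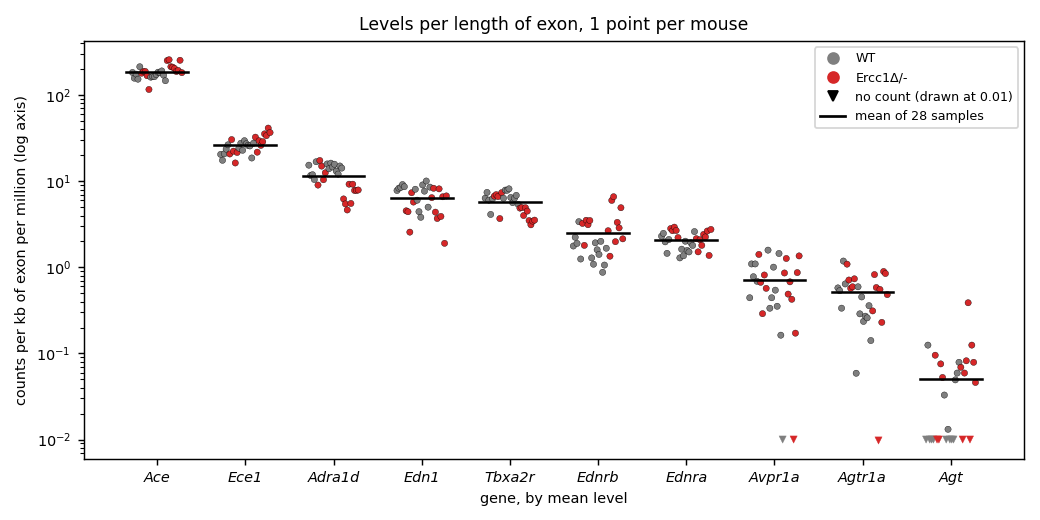
Level of each gene in CPM per kilobase of exon (log axis), 1 point per mouse, with WT mice in grey and Ercc1Δ/- mice in red. Lines mark the mean of 28 libraries, which runs from 186 for Ace down to 0.0508 for Agt, and triangles at the foot mark libraries without a count.

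Normalised counts in the rest of the text are counts scaled to the mean library of 3683502 and serve to compare 1 gene between libraries. The 28 libraries were scaled with the TMM factor of edgeR, 0.935 to 1.07. Mouse 003 was scaled by its plain total over the tested genes, without that factor. A gene was tested if over 10 libraries had over 10 counts of it, which held for 7 of the 10 genes and left out Agtr1a, Agt and Avpr1a. A gene is called where the edgeR quasi-likelihood test, with sex beside the group as a term, gave a change of 1.2-fold or more and an adjusted p (Benjamini-Hochberg, over the 12353 tested genes) of 0.05 or less. Interactions needed the adjusted p alone. The comparison of genotypes at 22 weeks AL called 4 of the 7 tested genes, with Ace and Ednrb higher and Adra1d and Tbxa2r lower in Ercc1Δ/- mice, while 12.0% of all tested genes were called. On DR it called 3 of 7, with Ece1 higher and Adra1d and Tbxa2r lower, against 13.0% of all genes. The 2 comparisons contrast different mice, but the fit for DR also held the AL-fed mice of 22 weeks. The median log2 fold change of the 7 genes was 0.04 on AL and 0.22 on DR, beside 0.03 and 0.00 over all genes.

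**Figure D2:**
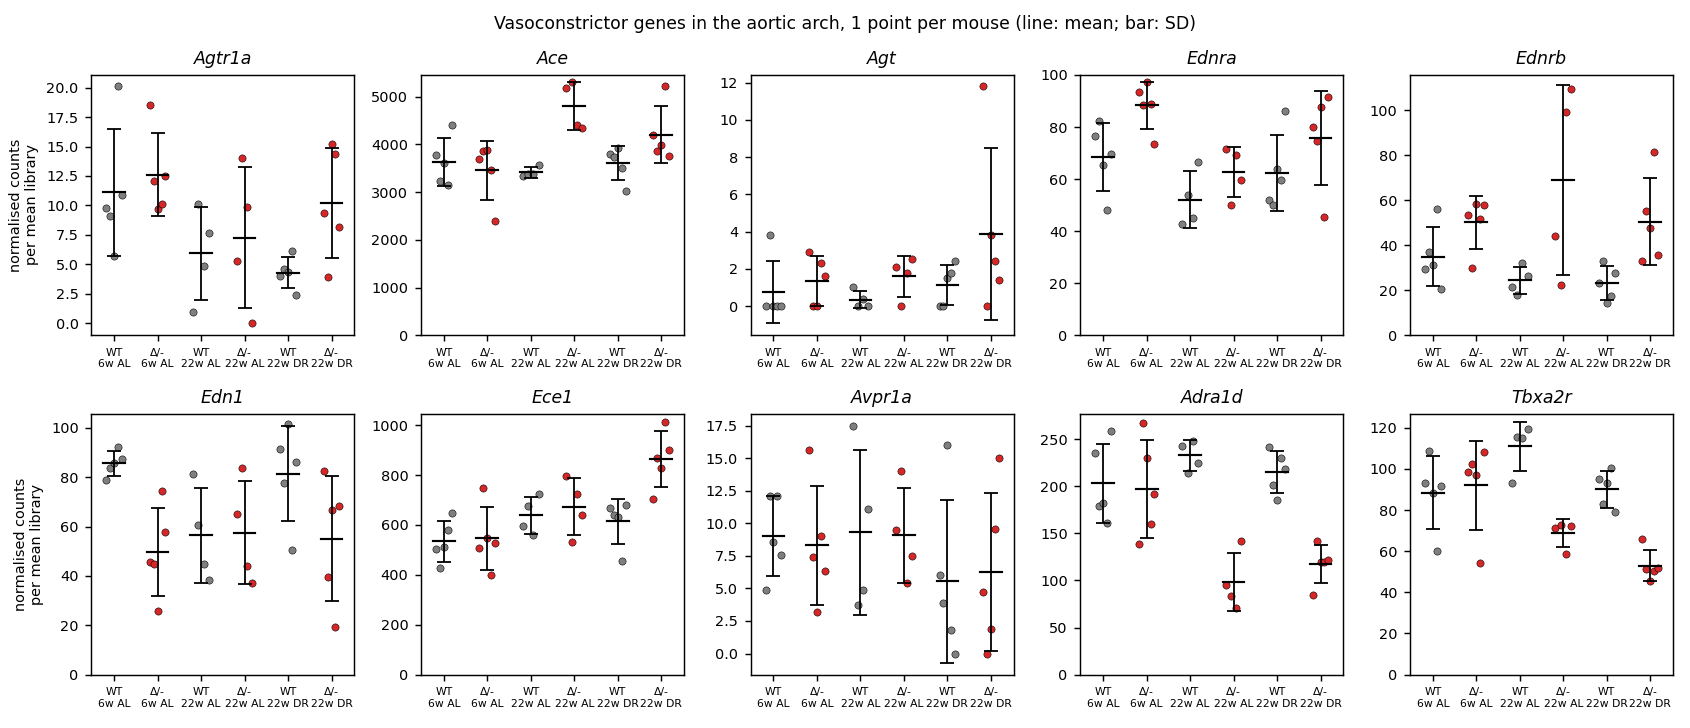
Normalised counts of the 10 genes in the 6 groups, 1 point per mouse, with lines for means and bars for SD, WT in grey and Ercc1Δ/- in red. Mouse 003 is not drawn. At 22 weeks Adra1d in Ercc1Δ/- mice lay between 71.2 and 141.8, below each drawn WT mouse of that age at 185.8 or more. At 6 weeks the genotypes overlapped.

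At 6 weeks the same comparison called 0 of the 7 genes in edgeR and 0 in DESeq2, with 1.70% of all genes called. An unadjusted p under 0.05 was found for 1 of the 7 in either tool, beside 12.8% of all genes in edgeR. From 6 to 22 weeks on AL, 2 of 7 were called in Ercc1Δ/- mice (Ace higher, Adra1d lower) beside 4.69% of all genes. In WT mice 0 of 7 were called in edgeR and in DESeq2, beside 0.235% of all genes. There 2 of 7 had an unadjusted p under 0.05 in each tool, beside 8.64% of all genes in edgeR. The test of the difference between the genotypes in their change with age called 1 of 7, Adra1d, beside 0.842% of all genes. These age comparisons use the same AL-fed mice as the comparisons of genotypes.

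Diet moved none of the 7 genes past the threshold. DR against AL at 22 weeks called 0 of 7 in WT mice in both tools, beside 1.28% of all genes. An unadjusted p under 0.05 was found for 1 of 7 in each tool, beside 12.8% of all genes in edgeR. In Ercc1Δ/- mice DR against AL also called 0 of 7 in both tools, beside 1.64% of all genes. Under an unadjusted p of 0.05 were 3 of 7 in edgeR, beside 15.0% of all genes, and 2 of 7 in DESeq2. The interaction of genotype and diet called 0 of 7 in both tools, beside 0.0971% of all genes. Under an unadjusted p of 0.05 were 2 of 7 in each, beside 8.72% of all genes in edgeR. Male against female mice over all groups gave 0 of 7 calls in both tools, beside 0.186% of all genes called. An unadjusted p under 0.05 was found for 0 of 7 in both tools, beside 7.83% of all genes in edgeR.

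**Figure D3:**
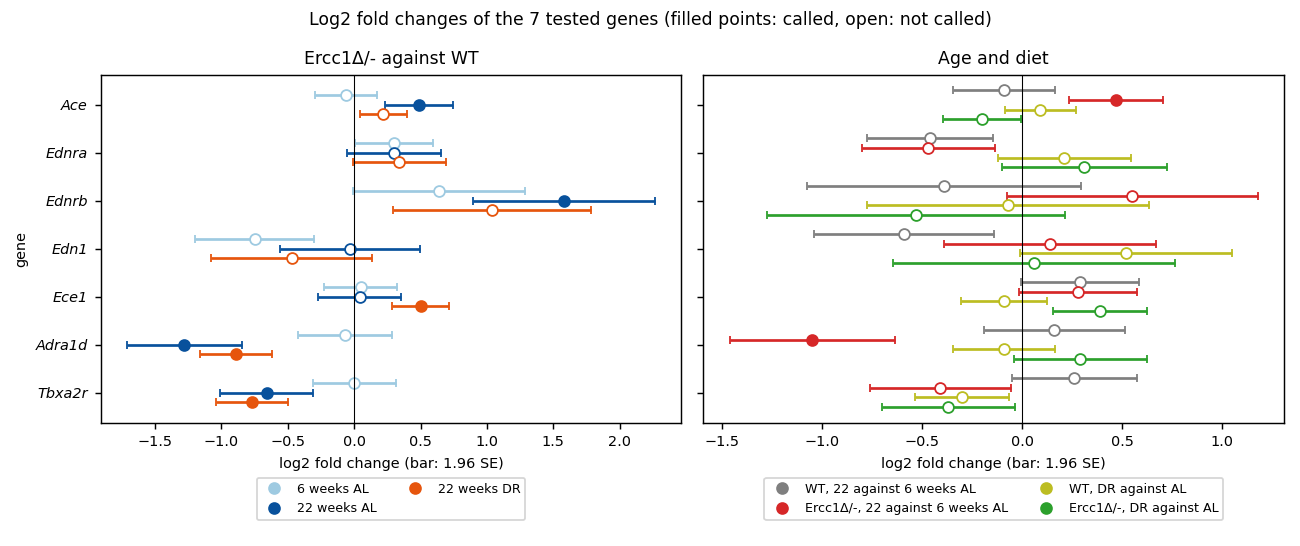
Log2 fold changes of the 7 tested genes with 95% intervals, for genotype (left) and for age and diet (right), with filled points for called genes. Adra1d lies at -1.28 and -0.89 in Ercc1Δ/- against WT at 22 weeks on AL and DR and at -0.07 at 6 weeks.

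Adra1d (ENSMUSG00000027335, chr2:131385993-131404693 in GRCm39, minus strand) had the smallest p of the 7 genes in both comparisons of genotype at 22 weeks. The alpha-1D receptor is a main adrenergic receptor for contraction of the mouse aorta. On AL at 22 weeks the WT mice had 214.6, 224.7, 243.5 and 248.8 normalised counts and the Ercc1Δ/- mice 71.2, 83.7, 95.6 and 141.8. The groups did not overlap, and the Ercc1Δ/- mean of 98.1 ± 30.8 (SD, n = 4) was 42.1% of the WT mean of 233 ± 16.0 (n = 4). Mouse 003, kept out of the WT group, scaled to 129.8 from 14 counts, below the highest Ercc1Δ/- mouse. The log2 fold change was -1.28 ± 0.22 (SE, adjusted p = 0.000566, edgeR). All 18 fits that left out 1 mouse kept the call, with log2 fold changes from -1.52 to -1.15. The 18 fits leave out each mouse of the fit in turn, including mice outside the 2 groups compared. This holds for each comparison of 2 groups below.

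On DR the levels of Adra1d were 185.8, 201.2, 218.2, 230.6 and 241.9 in WT mice and 84.7, 119.9, 120.0, 121.4 and 141.7 in Ercc1Δ/- mice. Here too the genotypes did not overlap, with a log2 fold change of -0.89 ± 0.14 (adjusted p = 0.000125, edgeR). Between DR and AL in Ercc1Δ/- mice the log2 difference was 0.29 ± 0.17 (adjusted p = 0.438, edgeR), with a 95% interval from -0.04 to 0.62. The difference of genotypes did not pass the test of a change with diet (0.39 ± 0.21, adjusted p = 0.641, edgeR).

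At 6 weeks Adra1d stood at 160.7, 179.0, 182.7, 235.8 and 258.6 in WT mice and at 138.5, 159.8, 192.4, 230.1 and 267.2 in Ercc1Δ/- mice, so that the ranges covered each other. The log2 fold change of genotype was -0.07 ± 0.18 (adjusted p = 0.923, edgeR). In Ercc1Δ/- mice Adra1d fell from 6 to 22 weeks by 1.05 ± 0.21 on the log2 scale (adjusted p = 0.00476, edgeR), whereas the value in WT mice was 0.16 ± 0.18 (adjusted p = 0.909, edgeR). The 2 groups of Ercc1Δ/- mice overlapped in 1 mouse of 22 weeks at 141.8 and 1 of 6 weeks at 138.5. The difference between the genotypes in the change with age was -1.21 ± 0.28 and was called at an adjusted p of 0.0453 (edgeR; 0.00576 in DESeq2). It was called in 5 of 18 fits without 1 mouse, and the adjusted p reached 0.131 without mouse 004. With mouse 003, whose 14 counts scale to 129.8, the interaction was -1.15 with an adjusted p of 0.0787 (edgeR).

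Tbxa2r (ENSMUSG00000034881, chr10:81163948-81171025, plus strand), whose receptor answers to thromboxane A2 from platelets and the vessel wall, was lower in Ercc1Δ/- mice at 22 weeks on either diet. On AL the WT mice had 93.1, 115.1, 115.6 and 119.6 normalised counts and the Ercc1Δ/- mice 58.6, 71.4, 72.2 and 72.5. The groups did not overlap and the log2 fold change was -0.66 ± 0.18 (adjusted p = 0.0169, edgeR). On DR the values were 79.1 to 100.4 in WT mice with a median of 92.9 and 45.7 to 65.9 in Ercc1Δ/- mice with a median of 51.2. Again the groups did not overlap, with a log2 fold change of -0.77 ± 0.14 (adjusted p = 0.000617, edgeR).

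At 6 weeks Tbxa2r was 88.5 ± 17.6 in WT and 92.0 ± 21.7 in Ercc1Δ/- mice (SD, n = 5 each), a log2 fold change of 0.00 ± 0.16 (adjusted p = 0.999, edgeR). The change of this difference with age was -0.67 ± 0.24 (adjusted p = 0.251, edgeR). Levels on DR were 77.2% of those on AL in Ercc1Δ/- mice and 81.2% in WT mice, and neither difference was called (adjusted p = 0.28 and 0.251, edgeR). The call at 22 weeks AL was lost without mouse 018 (adjusted p = 0.115), without mouse 004 (0.0597) and with mouse 003 (0.141), all in edgeR. Mouse 003 held 1 count of Tbxa2r. The call on DR was kept in all 18 fits without 1 mouse, with an adjusted p of at most 0.00401.

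Ace (ENSMUSG00000020681, chr11:105858469-105880790, plus strand) makes the enzyme that yields angiotensin II and degrades bradykinin. Its levels at 22 weeks AL were 3329.7, 3375.5, 3380.7 and 3572.0 normalised counts in WT mice and 4344.9, 4405.4, 5192.6 and 5307.3 in Ercc1Δ/- mice. The groups did not overlap, and Ace was 1.41-fold higher in Ercc1Δ/- mice (log2 0.49 ± 0.13, adjusted p = 0.0168, edgeR). At 6 weeks the WT mice ran from 3153.8 to 4399.5 with a median of 3605.0 and the Ercc1Δ/- mice from 2395.3 to 3875.9 with a median of 3702.8, and the log2 fold change was -0.06 ± 0.12 (adjusted p = 0.887, edgeR). Thus Ace rose with age in Ercc1Δ/- mice by 0.47 ± 0.12 (adjusted p = 0.0294, edgeR) and had a value of -0.09 ± 0.13 in WT mice (adjusted p = 0.932, edgeR). The test of that difference itself gave 0.55 ± 0.18 and missed the threshold (adjusted p = 0.18, edgeR).

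On DR the genotypes overlapped for Ace, at 3028.2 to 3930.5 in WT mice and 3757.2 to 5227.4 in Ercc1Δ/- mice, and the log2 fold change of 0.22 ± 0.09 was not called (adjusted p = 0.104, edgeR). DR against AL in Ercc1Δ/- mice gave -0.20 ± 0.10 (adjusted p = 0.309, edgeR), and the interaction of genotype and diet -0.29 ± 0.14 (adjusted p = 0.553, edgeR). The call at 22 weeks AL was lost without mouse 018 (adjusted p = 0.0592), 005 (0.0629) or 013 (0.0632), and the call with age without mouse 023 (0.0553), 005 (0.112) or 013 (0.104), with mouse 003 added (0.0787) or with only the compared groups in the fit (0.0921). The log2 fold changes in these fits stayed between 0.41 and 0.48.

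The other 2 genes of the angiotensin system were near the limit of detection. Agtr1a (ENSMUSG00000049115, chr13:30518942-30566850), the receptor gene, had 227 counts over the 28 libraries, with a mean of 11.1 ± 5.38 normalised counts in WT and 12.6 ± 3.53 in Ercc1Δ/- mice at 6 weeks (SD, n = 5 each). The means were 5.93 ± 3.93 and 7.28 ± 6.02 at 22 weeks AL (n = 4 each), and on DR 4.28 ± 1.32 and 10.2 ± 4.66 (n = 5 each). On DR 4 of 5 Ercc1Δ/- mice lay above each WT mouse (two-sided exact permutation test of the means, p = 0.0397, 1 of 70 such tests over the 10 genes, unadjusted). Fitted without the filter on low counts, the same difference had an adjusted p of 0.189 (edgeR). Agt (ENSMUSG00000031980, chr8:125279301-125296716), whose product comes mainly from liver, had 33 counts in all, with no count in 12 of 28 libraries and no group mean above 3.87 normalised counts.

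Ednrb (ENSMUSG00000022122, chr14:104052053-104081900, minus strand) had the largest fold change of the 7 genes at 22 weeks AL and also the largest spread. The WT mice had 18.0, 21.3, 26.5 and 31.9 normalised counts and the Ercc1Δ/- mice 22.3, 44.1, 99.2 and 109.5. The groups overlapped in mouse 013, with 8 counts, and the other 3 Ercc1Δ/- mice lay above the WT group. The log2 fold change was 1.58 ± 0.35 (adjusted p = 0.00556, edgeR), a 2.99-fold difference, and was called in all 18 fits without 1 mouse. The exact permutation test of the means gave p = 0.0857 (two-sided, smallest possible 0.0286). The call was lost with only the compared groups in the fit (adjusted p = 0.0532, edgeR) and with mouse 003 added (adjusted p = 0.0826, edgeR). The 14 counts of mouse 003, scaled without a TMM factor, come to 129.8, above all 28 libraries used.

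On DR Ednrb was 14.5, 17.6, 23.4, 27.6 and 33.2 in WT mice and 32.9, 35.5, 47.6, 55.1 and 81.6 in Ercc1Δ/- mice, with an overlap at 32.9. The log2 fold change of 1.04 ± 0.38 was not called in edgeR (adjusted p = 0.0866) and was called in DESeq2 (adjusted p = 0.0192). At 6 weeks the WT mice ran from 20.7 to 56.2 with a median of 31.4 and the Ercc1Δ/- mice from 29.8 to 58.3 with a median of 53.6 (0.64 ± 0.33, adjusted p = 0.431, edgeR). The interaction of genotype and age was 0.94 ± 0.48 (adjusted p = 0.468, edgeR).

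The macrophage markers moved with the genotype in the same direction as Ednrb. Mouse 016, which had the highest Ednrb level on DR at 81.6, had the highest macrophage sum of all libraries at 4409, and without it the log2 fold change on DR was 0.78 (adjusted p = 0.246, edgeR). At 22 weeks AL the order was different, since mouse 026 with the highest Ednrb level had a macrophage sum of 2573 and mouse 005 with 44.1 had 3736. Mouse 013, lowest for Ednrb in that group, also had the lowest macrophage sum of the 4 mice, at 2043. The part of macrophages in the Ednrb values was not tested.

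Ednra (ENSMUSG00000031616, chr8:78386590-78451552, minus strand), the constricting receptor of the pair, was not called in any comparison. Its means were 68.5 ± 13.0 in WT and 88.3 ± 9.03 in Ercc1Δ/- mice at 6 weeks (SD, n = 5 each), 52.1 ± 10.8 and 62.7 ± 9.77 at 22 weeks AL (n = 4 each) and 62.4 ± 14.5 and 75.9 ± 18.1 on DR (n = 5 each). From 6 to 22 weeks the values were -0.46 ± 0.16 in WT mice (adjusted p = 0.322, edgeR) and -0.47 ± 0.17 in Ercc1Δ/- mice (adjusted p = 0.124, edgeR), the latter with groups that did not overlap. The log2 ratio of Ednrb to Ednra counts within a library was -0.11 ± 0.95 in Ercc1Δ/- and -1.09 ± 0.46 in WT mice at 22 weeks AL, and -0.61 ± 0.88 and -1.44 ± 0.58 on DR. Neither difference passed the exact permutation test (p = 0.143 and 0.111, both 0.317 after Benjamini-Hochberg adjustment over 21 comparisons of ratios).

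Edn1 (ENSMUSG00000021367, chr13:42446301-42461466, plus strand), the endothelin-1 gene, showed its clearest difference at 6 weeks. The WT mice had 78.9, 83.8, 85.6, 87.3 and 92.4 normalised counts and the Ercc1Δ/- mice 25.9, 44.7, 45.8, 57.9 and 74.3. The groups did not overlap (two-sided exact permutation test, p = 0.00794, the smallest possible and unadjusted), and the Ercc1Δ/- mean was 58.1% of the WT mean. In the fit over all genes the log2 fold change of -0.75 ± 0.23 was not called (adjusted p = 0.126 in edgeR, 0.0615 in DESeq2). It was called without mouse 023, the highest of the Ercc1Δ/- mice (-0.94, adjusted p = 0.0456, edgeR).

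The Edn1 values at 22 weeks AL overlapped almost fully, at 38.5 to 81.5 in WT and 37.3 to 83.7 in Ercc1Δ/- mice (-0.03 ± 0.27, adjusted p = 0.968, edgeR). On DR they were 50.5 to 101.6 in WT and 19.2 to 82.4 in Ercc1Δ/- mice (-0.47 ± 0.31, adjusted p = 0.366, edgeR). In WT mice the level at 22 weeks AL was 65.9% of that at 6 weeks (-0.59 ± 0.23, adjusted p = 0.425, edgeR). The 9 endothelial markers had no called member between genotypes at 6 weeks, when their sum ran from 3318 to 3877 in WT and from 2661 to 6604 in Ercc1Δ/- mice.

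Ece1 (ENSMUSG00000057530, chr4:137589530-137692542, plus strand), which activates endothelin-1, differed between genotypes on DR. The WT mice had 456.2, 629.9, 638.6, 667.6 and 678.5 normalised counts and the Ercc1Δ/- mice 705.9, 828.8, 869.8, 901.4 and 1014.8. The groups did not overlap and Ece1 was 1.41-fold higher in Ercc1Δ/- mice (log2 0.50 ± 0.11, adjusted p = 0.00272, edgeR), a call kept in all 18 fits without 1 mouse. On AL the values were 560.9 to 724.7 in WT and 533.0 to 796.4 in Ercc1Δ/- mice at 22 weeks (0.04 ± 0.16, adjusted p = 0.918, edgeR). DR against AL in Ercc1Δ/- mice gave 0.39 ± 0.12 (adjusted p = 0.0955, edgeR) and in WT mice -0.09 ± 0.11 (adjusted p = 0.808, edgeR). The difference between these 2 effects, 0.48 ± 0.17, did not pass the test (adjusted p = 0.371, edgeR).

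Endothelial markers were also higher on DR in Ercc1Δ/- mice, where 3 of 9 (Cdh5, Pecam1 and Tie1) were called and the sum ran from 3589 to 6047 against 1916 to 3900 in WT mice. Their part in the Ece1 values was not tested. The log2 ratio of Edn1 to Ece1 counts was -4.09 ± 0.98 in Ercc1Δ/- and -2.93 ± 0.20 in WT mice on DR (exact permutation p = 0.0159, adjusted p = 0.0833 over the 21 comparisons). At 6 weeks it was -3.49 ± 0.76 and -2.62 ± 0.19 (exact permutation p = 0.0397, adjusted p = 0.167), and at 22 weeks AL -3.58 ± 0.65 and -3.55 ± 0.56 (exact permutation p = 0.971, adjusted p = 0.971). The ratio of Ace to Agtr1a counts, limited by the few counts of Agtr1a, passed in none of its 7 comparisons after adjustment, the smallest adjusted p being 0.0833 by exact permutation.

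Avpr1a (ENSMUSG00000020123, chr10:122284404-122289659, plus strand), the vasopressin receptor, had 201 counts over 28 libraries. Group means ran from 5.54 ± 6.25 in WT mice on DR to 9.30 ± 6.34 in WT mice at 22 weeks AL (SD, n = 5 and 4). The smallest exact permutation p among its 7 comparisons was 0.373 (two-sided, unadjusted). Fitted without the filter on low counts, the log2 fold change of genotype at 22 weeks AL was 0.31 ± 0.48, with a 95% interval from -0.63 to 1.24 (adjusted p = 0.89, edgeR).

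Since the smooth muscle markers were lower in Ercc1Δ/- mice, the counts of each tested gene were also divided by the summed counts of the 8 markers in the same library. This changes the reference and does not tell cell number from RNA per cell. The marker sum was itself lower in Ercc1Δ/- mice at 22 weeks, without overlap. A gene with an equal level per library therefore comes out higher per marker count. Per library the log2 fold changes on AL were 0.04 for Ece1 and 0.30 for Ednra, neither of them called. At 22 weeks AL Adra1d stayed lower per marker count, by 0.56 on the log2 scale without overlap of the groups (two-sided exact permutation test, p = 0.0286, the smallest possible), whereas Tbxa2r had a difference of 0.05 (p = 0.771, exact permutation). On DR the differences were -0.32 for Adra1d (p = 0.127, exact permutation) and -0.19 for Tbxa2r (p = 0.143, exact permutation). Ace was higher per marker count without overlap, by 1.22 on AL (p = 0.0286, exact permutation) and 0.78 on DR (p = 0.00794, exact permutation). Ece1 was likewise higher without overlap, by 0.79 on AL (p = 0.0286, exact permutation) and 1.06 on DR (p = 0.00794, exact permutation). The endothelin receptor gene Ednra was also higher per marker count, by 1.01 on AL without overlap (p = 0.0286, exact permutation) and by 0.84 on DR with overlap (p = 0.0159, exact permutation). The difference of Ednrb was 2.0 on AL with overlap (p = 0.0571, exact permutation) and 1.66 on DR without overlap (p = 0.00794, exact permutation). These are among 49 comparisons with unadjusted p-values.

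**Figure D4:**
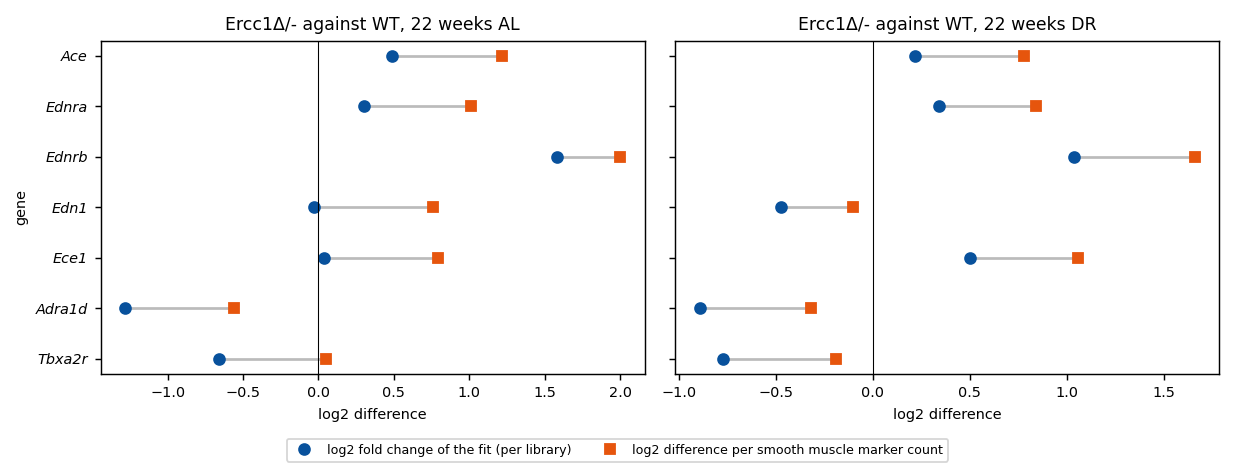
Difference of Ercc1Δ/- from WT mice at 22 weeks for the 7 tested genes, as the log2 fold change of the fit (circles) and as the log2 difference per count of 8 smooth muscle markers (squares), on AL (left) and DR (right). Tbxa2r moves from -0.66 to 0.05 on AL and Adra1d from -1.28 to -0.56.

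For each gene called in any comparison, the 3 tested genes with the most similar log2 CPM over the 28 libraries are given as a description. They share libraries, depth and the group differences, and the r within groups, after removing the group means, is given second. Adra1d was most like Speg (Pearson r = 0.889, within groups 0.648), Sh3pxd2a (0.888 and 0.622) and Stum (0.876 and 0.502), and Tbxa2r most like Maged1 (0.898 and 0.782), Islr (0.863 and 0.613) and Anxa6 (0.861 and 0.691). Ednrb was most like Cybb (0.781 and 0.645), Apobec1 (0.770 and 0.517) and Gnpda1 (0.766 and 0.648). Cybb encodes a subunit of the phagocyte NADPH oxidase. Ece1 was most like St3gal1 (0.822 and 0.766), Atp2a3 (0.809 and 0.718) and Cmip (0.804 and 0.792), and Ace most like Pck2 (0.765 and 0.726), Tor4a (0.764 and 0.770) and Slc25a30 (0.735 and 0.697).

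The wider pathway was described by 85 further genes on 7 lists, of which 54 had enough counts to be tested. In the comparison at 22 weeks AL 10 of the 54 were called between genotypes, 3 higher and 7 lower, and on DR 9 of 54, 2 higher and 7 lower. At 6 weeks 6 of 54 were called, 1 higher and 5 lower. The shares of all genes called in these comparisons are those given above, and no share was tested against them. The medians of the 54 genes were -0.01, -0.16 and -0.10 on the log2 scale.

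Most calls fell on the list of receptor coupling and shut-off genes, which act downstream of the receptors. Of its 25 genes 23 were tested, and 7 were lower at 22 weeks AL, 5 on DR and 4 at 6 weeks, with none higher. It was the largest list, with 23 of the 54 tested genes. Of all 12353 tested genes 12.0% were called at 22 weeks AL, 13.0% on DR and 1.70% at 6 weeks. Called lower were 761, 868 and 140 of them. Itpr1, the IP3-gated calcium release channel, fell from 842 ± 28.4 normalised counts in WT to 486 ± 45.3 in Ercc1Δ/- mice at 22 weeks AL (SD, n = 4 each), a log2 fold change of -0.81 ± 0.11 (adjusted p = 3.03e-05, edgeR). Its level rose on DR in Ercc1Δ/- mice by 0.35 ± 0.09 to 617 ± 43.9 (n = 5, adjusted p = 0.0389, edgeR). Rgs4, which shuts off Gq signals, was 651 ± 118 in WT and 310 ± 37.5 in Ercc1Δ/- mice on AL (-1.04 ± 0.19, adjusted p = 0.0015, edgeR) and 798 ± 99.3 and 319 ± 109 on DR (-1.31 ± 0.21, adjusted p = 0.000781, edgeR).

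Plcb4, a phospholipase C that Gq activates, had a log2 fold change of -0.46 ± 0.11 at 6 weeks (adjusted p = 0.0355, edgeR), -0.60 ± 0.13 at 22 weeks AL (adjusted p = 0.00273, edgeR) and -0.47 ± 0.10 on DR (adjusted p = 0.00163, edgeR). Rock1, a kinase that keeps myosin phosphorylated, had a log2 fold change of -0.77 ± 0.12 at 6 weeks (adjusted p = 0.00228, edgeR), -0.45 ± 0.14 at 22 weeks AL (adjusted p = 0.0348, edgeR) and -0.61 ± 0.11 on DR (adjusted p = 0.000749, edgeR), and it rose on DR in WT mice by 0.51 ± 0.12 (adjusted p = 0.0338, edgeR). Arrb1, a beta-arrestin that uncouples receptors, rose with age in Ercc1Δ/- mice (0.39 ± 0.11, adjusted p = 0.0499, edgeR). Rgs2, another brake on Gq, was not called, with values of 0.19 ± 0.27 at 6 weeks, 0.06 ± 0.31 at 22 weeks AL and 0.75 ± 0.44 on DR.

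**Figure D5:**
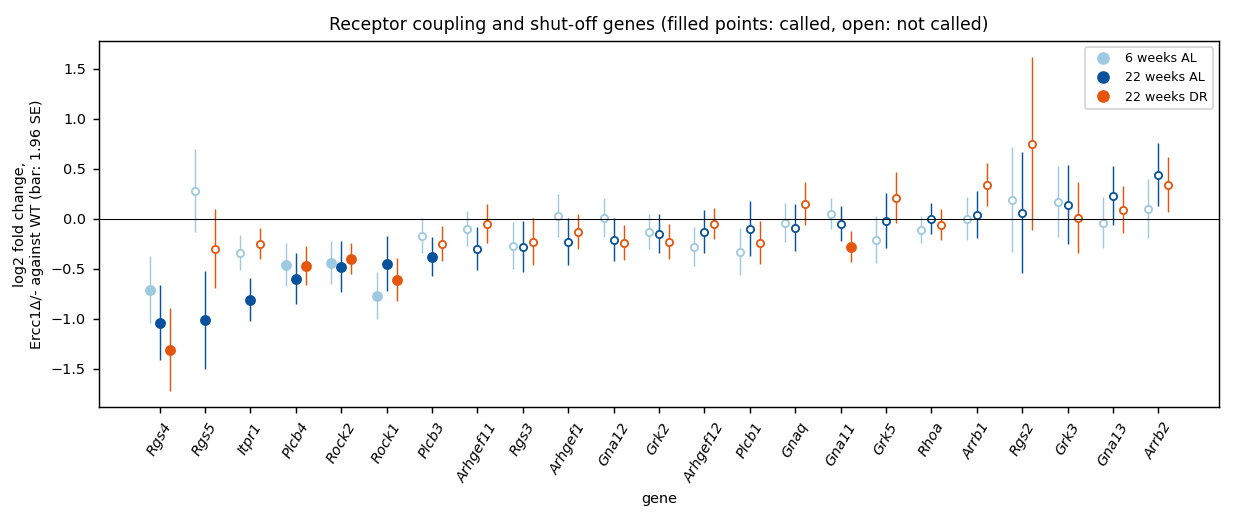
Log2 fold change of Ercc1Δ/- against WT mice with 95% intervals for the 23 tested coupling and shut-off genes, ordered by the value at 22 weeks AL, with filled points for called genes. The called points, 4 at 6 weeks, 7 at 22 weeks AL and 5 on DR, all lie below 0.

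The other lists held few calls. Of the 16 further renin-angiotensin genes 9 were tested, and the aminopeptidase Rnpep (0.44 ± 0.10, adjusted p = 0.0039, edgeR) and the carboxypeptidase Prcp (0.55 ± 0.16, adjusted p = 0.0253, edgeR) were higher in Ercc1Δ/- mice at 22 weeks AL. The aminopeptidase Anpep was higher at 6 weeks (0.41 ± 0.10, adjusted p = 0.0419, edgeR) and Agtrap, which binds the AT1 receptor and promotes its internalisation, on DR (0.43 ± 0.12, adjusted p = 0.0177, edgeR). Ren1 had 372 counts over 28 libraries and Agtr2 13, and neither passed the filter for testing.

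Of the 8 further adrenergic genes 5 were tested and none was called in any of the 10 comparisons. The other alpha-1 receptors stood at 9.42 ± 4.08 in WT and 10.1 ± 3.09 in Ercc1Δ/- mice for Adra1a and at 23.7 ± 3.14 and 30.2 ± 6.26 for Adra1b at 22 weeks AL (SD, n = 4 each). Their log2 fold changes were 0.49 ± 0.52 (adjusted p = 0.6, edgeR) and 0.21 ± 0.26 (adjusted p = 0.652, edgeR), beside -1.28 for Adra1d. On DR they were -0.41 ± 0.55 and -0.30 ± 0.29. The 5 further endothelin genes and the 5 further vasopressin and oxytocin genes did not pass the filter, with 0 counts of Avp, Avpr1b and Avpr2 in the 28 libraries.

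Of the 13 further prostanoid genes 10 were tested. Ptgis, the prostacyclin synthase, was lower in Ercc1Δ/- mice at 6 weeks (-0.42 ± 0.09, adjusted p = 0.0201, edgeR) and on DR (-0.43 ± 0.08, adjusted p = 0.000779, edgeR). Ptgs1, cyclooxygenase-1, rose with age in Ercc1Δ/- mice from 75.4 ± 19.2 to 124 ± 12.4 normalised counts (SD, n = 5 and 4; 0.69 ± 0.20, adjusted p = 0.049, edgeR). The prostacyclin receptor gene Ptgir was not called (0.66 ± 0.29 at 22 weeks AL, adjusted p = 0.146, edgeR).

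Of 13 other constrictor receptors 7 were tested. The thrombin receptor F2r was higher in Ercc1Δ/- mice at 22 weeks AL (0.71 ± 0.11, adjusted p = 0.000222, edgeR) and on DR (0.30 ± 0.09, adjusted p = 0.0323, edgeR). The serotonin receptor Htr1b was lower on DR in Ercc1Δ/- than in WT mice (-0.51 ± 0.11, adjusted p = 0.00229, edgeR), and it rose on DR in WT mice (0.50 ± 0.11, adjusted p = 0.0212, edgeR), as did the neuropeptide Y receptor Npy1r (0.43 ± 0.10, adjusted p = 0.0256, edgeR). P2ry6, a receptor for UDP, fell on DR in WT mice (-0.67 ± 0.16, adjusted p = 0.0287, edgeR) and in Ercc1Δ/- mice (-1.0 ± 0.20, adjusted p = 0.0102, edgeR). The genotype and diet comparisons on DR share the same mice.

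Several of the 10 genes overlap annotated transcripts on the other strand. Ednra, Adra1d and Avpr1a lie entirely inside such transcripts and Ace by 81.0% of its length. These partners had 13, 162, 0 and 30 counts over the 28 libraries, beside 5520 counts for Adra1d and 104155 for Ace. Cog2, which overlaps Agt by 14.1%, had 3584 counts beside 33 of Agt. On the same strand, Gm48161 overlaps Agtr1a by 14.25% of its length and had 36 counts beside 227 of Agtr1a. The counting setting for strand was not given in the sources used here, and how reads of pairs on opposite strands were assigned was not tested. Adra1d and Ednra, each inside such a transcript over its full length, held 5520 and 1872 counts. Of gene, no-feature and ambiguous reads together, ambiguous reads made up 1.48% to 1.92% per library.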

How the data were processed

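RNA of 29 aortic arches was sequenced, 1 library per mouse. The authors aligned reads to GRCm39 with STAR 2.7.10a, collapsed duplicates with UMI-tools 1.1.2 and counted with HTSeq 2.0.2 over gene bodies. They deposited raw counts per gene. The 5 lines of unassigned reads were left out; beside gene counts, no-feature reads made up 7.55% to 10.72% and ambiguous reads 1.48% to 1.92%. Totals, 921167 to 9616382, limit the precision. Libraries of separate mice are the replicates.

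The 28 libraries other than 003 were analysed with edgeR 4.0.16 (TMM, robust quasi-likelihood, group and sex) in R 4.3.3, genotype and age over the 18 AL-fed and diet over the 18 libraries of 22 weeks. Standard errors are the fold change over the root of F, and 95% intervals assume a normal spread. Single values were compared by exact permutation tests, ratios with 0.5 added to both counts. The edgeR fit of genotype at 22 weeks AL was run on simulated counts with known changes. The permutation test and the adjustment were checked on made-up numbers. The other steps were not tested in this way. Alternatives included DESeq2 1.42.0, RLE, no filter, other sample sets, thinning and leaving out each library.

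All 10 genes are named. Of the 85 pathway genes, those named were the 3 called genes of lowest p, upward and downward, per comparison, together with Ren1, Agtr2, Adra1a, Adra1b, Ptgs1, Ptgir and Rgs2. Avp, Avpr1b and Avpr2 were named after their values were seen. 1 further named gene is not reported here. Genes, lists and tests were chosen with earlier results of these data known.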

Additional observations from a re-analysis of the deposited data

Results flagged for a closer look

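In groups of 4 or 5 mice, 6 values lay far from the rest of their group by Dixon's test, out of 60 groups looked at, where chance marks about 1 in 20. Among Ercc1Δ/- mice at 6 weeks these were Ace in mouse 027 at 2395.3 normalised counts (others 3459.7 to 3875.9), Ednrb in mouse 008 at 29.8 (others 51.8 to 58.3) and Tbxa2r in mouse 023 at 54.0 (others 97.2 to 108.0). At 22 weeks AL Tbxa2r in Ercc1Δ/- mouse 004 was 58.6, below 71.4 to 72.5 in the other 3. Ece1 in WT mouse 028 on DR was 456.2, below 629.9 to 678.5. Agt in WT mouse 001 at 6 weeks was 3.8, from 5 counts, with 0 counts in the other 4. Without mouse 023, Tbxa2r in Ercc1Δ/- mice was lower at 22 than at 6 weeks by a called log2 difference of -0.57 (adjusted p = 0.0393, edgeR), beside -0.41 with it (adjusted p = 0.23, edgeR).

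The change of Adra1d with age differed between the genotypes, at -1.21 on the log2 scale by the interaction test (adjusted p = 0.0453, edgeR).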

How the results depend on the processing

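With mouse 003 added, 2 in place of 4 genes were called between genotypes at 22 weeks AL (Ednrb and Tbxa2r lost), 1 in place of 2 with age in Ercc1Δ/- mice (Ace lost) and 0 in place of 1 for genotype by age. With only the compared groups in the fit 1 gene was called with age in Ercc1Δ/- mice, and without a filter on low counts 0 for genotype by age. The causes were not tested. Fits without 1 mouse called 0 to 1 genes for genotype at 6 weeks, 2 to 4 at 22 weeks AL, 1 to 2 with age in Ercc1Δ/- mice, 0 to 1 for genotype by age and 3 to 4 for genotype on DR. They called 0 with age in WT mice, for diet in either genotype, for genotype by diet and for sex. With 4 in place of 8 smooth muscle markers Ece1 per marker rose with age in WT mice, at 0.28 (exact permutation p = 0.0397, unadjusted). None of the called log2 fold changes of the 7 genes changed sign in any alternative, the earlier dispersion method of edgeR included, which was chosen after seeing the data. The Ednrb call on DR, absent from the report's fit, was gained with only the compared groups (adjusted p = 0.0179), in DESeq2 and without mouse 013 (0.0391). No paired analysis was possible because each mouse gave 1 sample. Agtr1a, Agt and Avpr1a did not pass the filter on low counts, and the edgeR fit without it called none of them in any of the 10 comparisons, with unadjusted p under 0.05 for Agtr1a on DR and for Agt at 22 weeks on either diet between genotypes.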
